A study of Mus musculus with 11 samples.

Results

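The 10 genes described here, Egr1, Egr2, Nab1, Nab2, Gfi1, Id2, Jun, Junb, Fos and Fosb, are transcription regulators that immature blood cells use when they choose between the macrophage and granulocyte fates, together with the AP-1 genes that respond first to growth factor signals. They were taken as a list of names, without a threshold on a measured value but with earlier results of these data known, out of 22359 protein-coding genes of the annotation. Gfi1 carries the class processed transcript in that annotation and is therefore not counted among the 22359. Each gene was examined over its body with 15 kb on each side, which gives 788 of the 5309802 windows of 500 bp into which the mouse genome (assembly mm9) was divided.

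The assay was ChIP-Seq of PU.1, in which an antibody (T-21, the same lot throughout) recovers DNA bound by PU.1 from fixed chromatin and the DNA is sequenced beside input DNA. MEL cells are murine erythroleukemia cells, here clone 4 of a stable transfection with Gata-1 fused to the estrogen receptor ER, kept under puromycin, so that the MEL values come from 1 clone that carries this fusion in every library. ES-EP are erythroid progenitors derived from embryonic stem cells, kept dividing with Epogen, human IGF-1, dexamethasone and murine SCF. The letters A and B in the library names were taken as 2 chromatin preparations of each cell type. The numbers were taken as 2 libraries of each preparation, which were summed here. The labels do not say whether the preparations came from separate cultures. The p-values between cell types therefore measure only the spread between these preparations, which may be technical. The input of MEL cells is 1 library and that of ES-EP is 2.

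PU.1, the product of Sfpi1, belongs to the ETS family of DNA-binding proteins and recognises purine-rich DNA with a GGAA core. It is required for macrophages and B cells, and in immature erythroid cells its level has to fall before they mature. In myeloid progenitors EGR1 and EGR2, with their NAB corepressors, favour the macrophage fate and oppose GFI1, a zinc-finger repressor that favours granulocytes. ID2 blocks E proteins by binding them without contacting DNA. FOS and FOSB pair with JUN or JUNB to form AP-1, and JUN is also known as a partner of PU.1.

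Reads were counted by the middle of their fragment, and a window was called when its ChIP reads of both preparations exceeded the local depth-scaled input in a one-sided Poisson test at a false discovery rate of 0.05. The test pools the reads of both preparations, so its p-values do not measure the spread between preparations. Depth-scaled values are given in RPM, reads scaled to a total of 1000000. The preparations hold between 5697937 (MEL A) and 7095855 (ES-EP B) reads, and the inputs hold 4278560 (MEL cells) and 7488885 (ES-EP) reads. The share of ChIP reads that fell in called windows was 6.47% in MEL A, 9.04% in MEL B, 8.61% in ES-EP A and 4.52% in ES-EP B, so that the stronger preparation was B in MEL cells and A in ES-EP. As a check of the antibody, the upstream regulatory element of Sfpi1, a known PU.1 site, held 23 (A) and 96 (B) ChIP reads over 4 input reads in MEL cells and 33 and 38 over 3 in ES-EP, and was called in both cell types. The window of the Sfpi1 promoter, with 8 and 7 reads in MEL cells against 7 and 6 in ES-EP, was not called. No expression was measured in these libraries, so the labelled cell types were not checked by marker genes.

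PU.1 reads exceeded input in 26 of the 788 windows in MEL cells (3.30%, against 0.428% of all windows) and in 22 in ES-EP (2.79%, against 0.291%). In 13 windows the excess was called in both cell types (1.65%, against 0.162%). The windows of the 10 genes lie around start sites by construction, so the share of genes is the closer comparison. A window within 2 kb of a start site was called for 7 of the 10 genes in MEL cells, where 38.9% of all protein-coding genes had one, for 5 in ES-EP (22.2% of all genes) and for 4 in both (18.4%), where the windows of the cell types may differ, as they did at Gfi1. Over the body with 15 kb on each side, 8 of the 10 had a called window in MEL cells (59.7% of all genes) and 7 had one in ES-EP (46.6%). These counts describe the 10 genes and were not tested against other lists.

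Adjoining called windows were joined into 30 sites, of which 11 were called in both cell types, 10 in MEL cells only and 9 in ES-EP only. Junb and Fosb held most of the shared sites, while Egr1, Nab1 and the other genes had at most 1. Distances were taken only to start sites of protein-coding genes and of Gfi1, not to those of other noncoding genes. Of the 30 sites, 13 lay within 2 kb of a start site of the listed gene. Farther than 2 kb from all of the start sites searched lay 14, and 6 had one of another gene as their nearest.

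**Figure D1:**
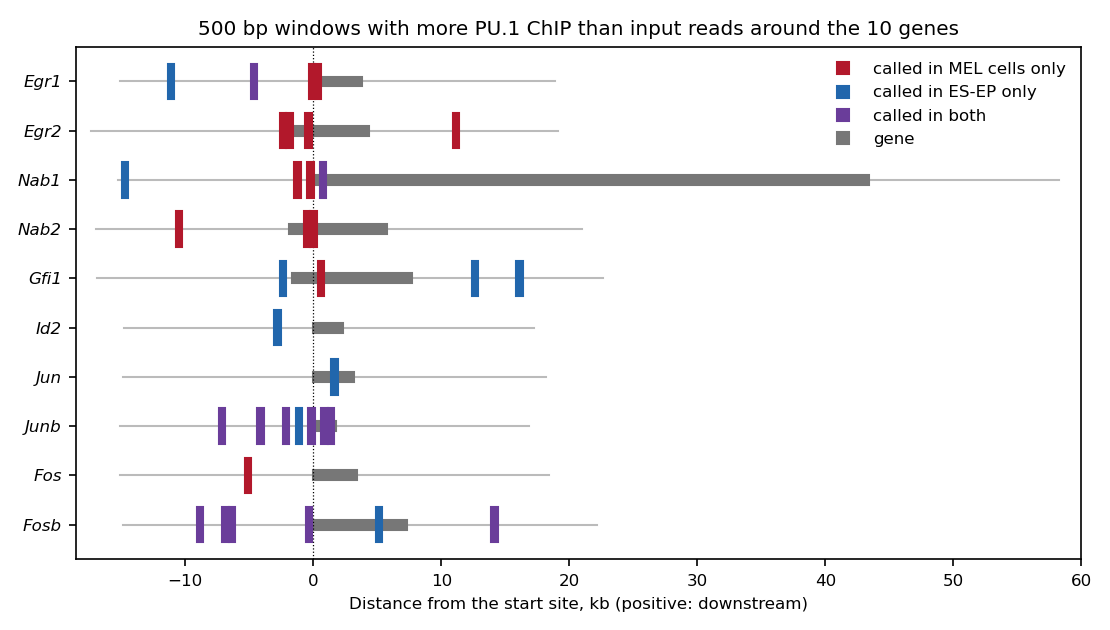
Called 500 bp windows (coloured bars) along each of the 10 genes, with the distance from the start site in kb on the horizontal axis, the gene as a thick grey bar and the examined region as a thin line. Shared windows lie mainly at Junb and Fosb, Egr2 and Nab2 have MEL calls only, and Id2 and Jun have a single ES-EP call each.

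The calls rest on the stronger preparation of each cell type. With MEL B alone 19 of the 788 windows were called (0.334% of all windows of the genome) and with MEL A alone 3 (0.0988%), while ES-EP A alone gave 19 (0.239%) and ES-EP B alone gave 3 (0.0579%). Only 2 sites were called in each MEL preparation taken alone and 3 in each ES-EP preparation taken alone. At the windows that represent the sites the input is thin, with a median of 3 reads (0 to 8) at the 21 called in MEL cells and of 2.5 reads (0 to 22) at the 20 called in ES-EP. Exact Clopper-Pearson 95% intervals of the ratio of ChIP to depth-scaled input, which cover counting error only, lay above 1 at 12 of the 18 MEL windows and 17 of the 19 ES-EP windows whose input was above 0.

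**Figure D2:**
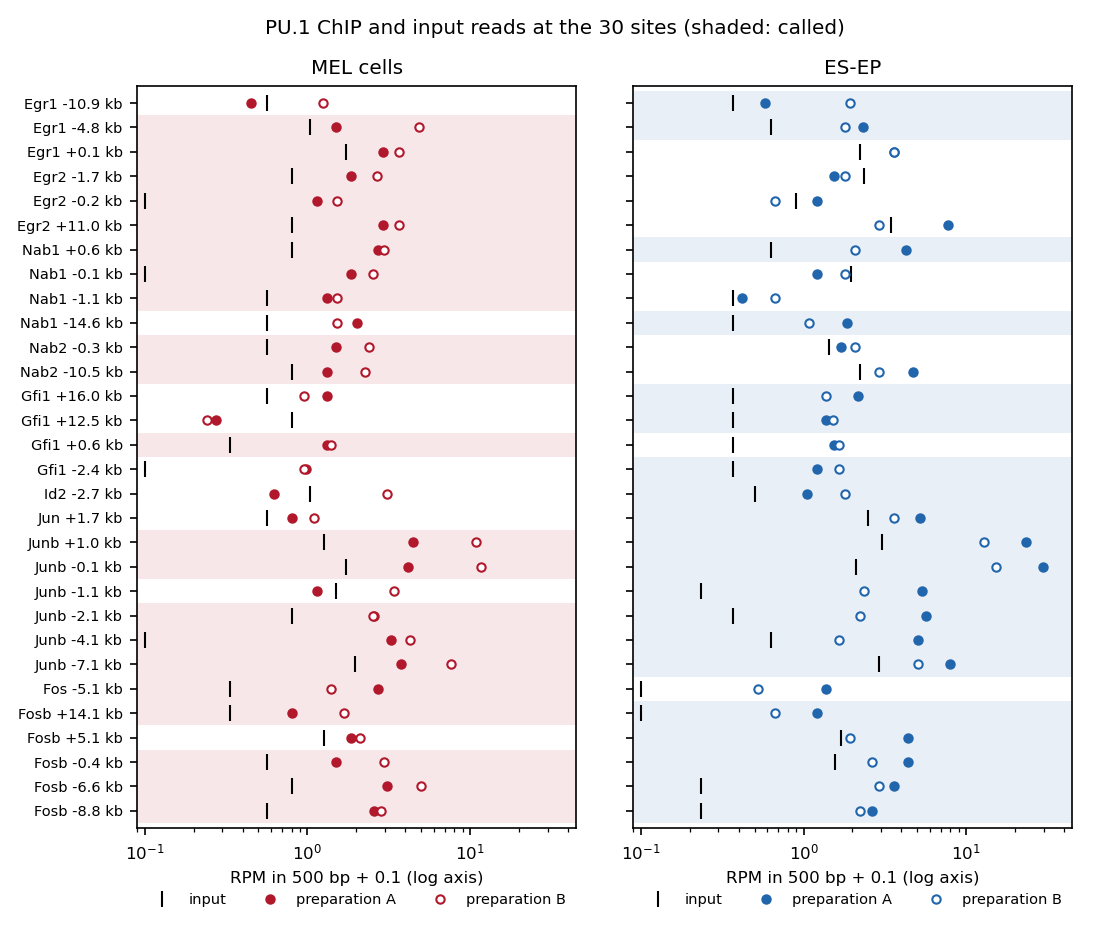
RPM plus 0.1 (log axis) at the representative window of each of the 30 sites, for preparation A (filled circles), preparation B (open circles) and input (vertical marks), in MEL cells (left panel) and ES-EP (right panel), with called sites shaded. Preparation B lies above A at 24 of 30 sites in MEL cells and A above B at 20 of 30 in ES-EP, and the Junb sites at the start site and +1.0 kb lie farthest to the right.

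Junb, which encodes a JUN protein that often restrains growth, had the strongest PU.1 signal of the 10 genes, with 6 windows called in MEL cells against 7 in ES-EP. The window at its start site, on chromosome 8 with its summit at position -76 from the start site, held 23 (A) and 81 (B) ChIP reads over 7 input reads in MEL cells and 186 and 108 over 15 in ES-EP. By mean depth-scaled ChIP reads over the 4 preparations it ranked 386th of all windows of the genome. The 151 bases just upstream of the Junb start site are shown here because they lie under this summit. They are given 5′ to 3′ on the strand of the gene from the genome of assembly mm9 (chr8:87502618-87502768, minus strand), and capitals mark the GGAA core on either strand, read as TTCC on this one.

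Junb start site: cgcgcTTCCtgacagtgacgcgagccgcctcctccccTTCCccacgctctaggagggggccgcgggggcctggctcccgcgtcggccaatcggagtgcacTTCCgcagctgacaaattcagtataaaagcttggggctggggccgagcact

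This stretch holds 3 GGAA cores. GAGGAAGT, the fuller PU.1 word searched here, was not found in the 500 bp window.

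Scaled by depth, the start-site window held 4.04 and 11.6 RPM in MEL preparations A and B against 1.64 in the input, and 29.6 and 15.2 in ES-EP A and B against 2.00 in the input. All 4 preparations lay above the input of their cell type, and both ES-EP preparations lay above both MEL preparations. ChIP over input was 5.01 in MEL cells (95% interval 2.35 to 12.8) and 10.97 in ES-EP (6.54 to 19.8), with Poisson p adjusted over all windows of 3.51e-31 and 3.86e-141.

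A second strong site lay in the single coding exon of Junb with its summit at position 1025. Its representative window held 25 and 75 reads over 5 input reads in MEL cells, a ratio of 6.75 (2.80 to 21.2). In ES-EP it held 146 and 91 reads over 22, a ratio of 6.03 (3.89 to 9.80). This site was called in each of the 4 preparations taken alone, which held for no other site of the 10 genes in both cell types except Fosb at position -6610.

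**Figure D3:**
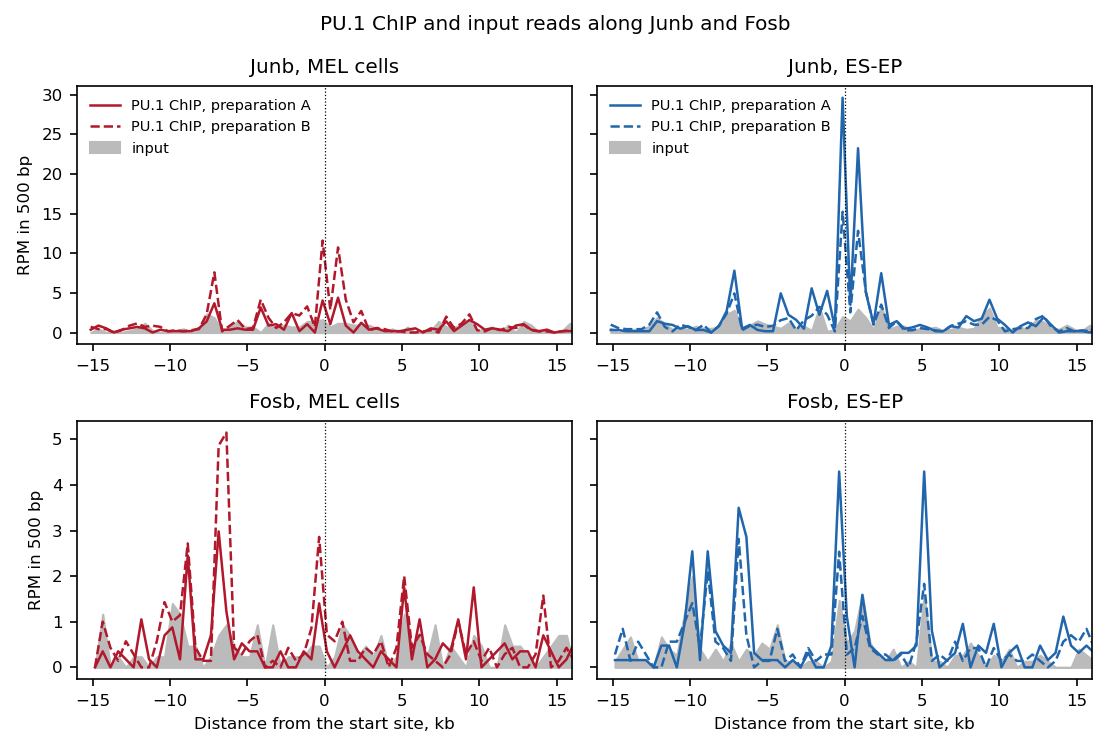
RPM in 500 bp windows along Junb (top) and Fosb (bottom) in MEL cells (left) and ES-EP (right), for preparation A (solid), preparation B (dashed) and input (grey), against the distance from the start site in kb. At Junb both ES-EP preparations peak at the start site (29.6 and 15.2 RPM). At Fosb both cell types show reads at position -6610 over a low input, where MEL B reaches 4.87 RPM. At the upstream promoter and in the coding sequence of Fosb, ES-EP A lies above the other preparations, at 4.30 RPM.

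Upstream of Junb the signal was lower. At position -4108, MEL cells held 18 and 29 reads with no input read, which sets the ratio at 5.28 or more when a floor of 3 input reads is used. ES-EP held 31 and 11 reads over 4 input reads there (ratio 5.88, 2.13 to 22.6). At position -7055, nearer to the start site of the neighbouring gene Hook2 than to that of Junb, the counts were 21 and 53 over 8 in MEL cells and 49 and 35 over 21 in ES-EP, with ratios of 3.12 and 2.24. Both sites were called in both cell types.

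These 2 upstream sites are printed because their windows carry words of known factors, PU.1 in the first and AP-1, the family of Junb itself, in the second. Both lie on the minus strand of assembly mm9, at chr8:87506650-87506800 and chr8:87509552-87509732. Capitals mark GAGGAAGT on either strand (here ACTTCCTC) in the first and TGANTCA in the second, where N is any base.

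Junb at -4108: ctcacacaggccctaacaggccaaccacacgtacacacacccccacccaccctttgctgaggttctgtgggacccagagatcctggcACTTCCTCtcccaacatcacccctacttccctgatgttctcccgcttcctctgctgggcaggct

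Junb at -7055: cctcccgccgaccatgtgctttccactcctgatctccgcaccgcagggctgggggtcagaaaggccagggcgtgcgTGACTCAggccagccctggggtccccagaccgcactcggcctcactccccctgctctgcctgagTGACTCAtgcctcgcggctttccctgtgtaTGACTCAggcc

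In the first sequence the PU.1 word was centred 15.5 bases from the summit, and the same window held another copy 219.5 bases away. In the second, 3 AP-1 words were centred 19, 83 and 113 bases from the summit and no PU.1 word was found in the window.

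Nearer to the start site, the window at position -2149 was called in both cell types, with 14 and 17 reads over 3 in MEL cells and 35 and 15 over 2 in ES-EP. The window at position -1134 was called in ES-EP only. It held 33 and 16 ChIP reads over a single input read in ES-EP (ratio 27.4, 4.70 to 1105) and 6 and 23 over 6 input reads in MEL cells (ratio 1.63, 0.665 to 4.80). The single input read came from the first ES-EP input library, and the second had 0 there.

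Fosb, a FOS family partner in AP-1, had 5 windows called in MEL cells against 6 in ES-EP. By mean RPM over the 4 preparations its strongest site lay in intergenic sequence on chromosome 7 at position -6610. The representative window held 17 and 34 reads over 3 input reads in MEL cells (ratio 5.73, 1.86 to 28.7) and 22 and 20 over 1 in ES-EP (ratio 23.5, 4.00 to 950). All 4 preparations were called alone. Near it, at position -8816, MEL cells held 14 and 19 reads over 2 and ES-EP held 16 and 15 over 1, with ratios of 5.57 (1.42 to 47.9) and 17.4 (2.89 to 707). At both sites the RPM of the preparations overlapped between the cell types.

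The 151 bases around these 2 summits are given on the strand of Fosb (assembly mm9, minus strand, chr7:19901929-19902079 and chr7:19904135-19904285), since they are distal sites called in both cell types. Capitals mark GGAA in the first and GAGGAAGT on either strand in the second.

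Fosb at -6610: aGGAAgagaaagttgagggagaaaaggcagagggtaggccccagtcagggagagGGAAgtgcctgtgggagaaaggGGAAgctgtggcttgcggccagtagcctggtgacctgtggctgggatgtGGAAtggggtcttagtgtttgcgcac

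Fosb at -8816: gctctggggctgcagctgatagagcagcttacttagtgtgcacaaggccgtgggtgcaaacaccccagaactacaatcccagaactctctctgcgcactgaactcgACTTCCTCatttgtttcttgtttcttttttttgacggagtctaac

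The first is a purine-rich run with 4 GGAA cores on the strand of the gene and no full PU.1 word, and its window holds AP-1 words centred 129, 262 and 348 bases from the summit. In the second the PU.1 word lay 34.5 bases from the summit.

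The upstream promoter of Fosb, with its summit at position -370, was also called in both cell types. It held 8 and 20 reads over 2 in MEL cells, a ratio of 4.72 (1.19 to 40.9), and 27 and 18 over 11 in ES-EP, a ratio of 2.29 (1.17 to 4.91). The window that holds the start site itself was called in neither, with 2 and 5 reads in MEL cells against 7 and 2 in ES-EP. The promoter stretch from -430 to -255 is shown because the words of 3 factors named in this work occur in it together (assembly mm9, chr7:19895649-19895824, minus strand). In order, the capitals mark the GFI1 word AATCNNNGC, the EGR word GCGNGGGCG and the CArG box of SRF, the factor through which growth signals switch on immediate early genes.

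Fosb promoter: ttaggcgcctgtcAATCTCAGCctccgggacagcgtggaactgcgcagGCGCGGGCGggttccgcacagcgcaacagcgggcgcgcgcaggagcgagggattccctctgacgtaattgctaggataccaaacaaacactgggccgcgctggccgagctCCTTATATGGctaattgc

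The EGR word was centred 8 bases from the summit, the GFI1 word 43 and the CArG box 102.5. No GAGGAAGT was found in this window.

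In the coding sequence of Fosb, at position 5116, the window was called in ES-EP only, with 27 and 13 reads over 12 (ratio 1.87, 0.959 to 3.91). MEL cells held 10 and 14 reads over 5 there. A weak site at position 14144 in an untranslated exon of the neighbouring gene Rtn2 was called in both cell types on 4 and 11 reads over 1 in MEL cells and 7 and 4 over 0 in ES-EP.

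Jun, the founding AP-1 gene, had 1 called window, in ES-EP. It lay in the coding sequence of this single-exon gene at position 1656 on chromosome 4 and held 32 and 25 reads over 18 input reads in ES-EP, a ratio of 1.77 (1.03 to 3.20; adjusted Poisson p of 7.62e-04). In MEL cells the same window held 4 and 7 reads over 2, a ratio of 1.86 (0.405 to 17.2). Scaled by depth, ES-EP had 5.09 and 3.52 RPM and MEL cells 0.702 and 1.00, but the ES-EP input also stood high there, at 2.40 RPM against 0.467 in the MEL input. The window at the Jun start site was called in neither cell type, with 1 and 2 reads in MEL cells against 0 and 5 in ES-EP.

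Fos, whose product is the common partner of JUN in AP-1, had 1 called site, in MEL cells. It lay at position -5065 on chromosome 12 and held 15 and 9 reads over 1 input read in MEL cells (ratio 8.10, 1.32 to 333), and 8 and 3 over 0 in ES-EP. This was the only MEL site called from preparation A alone and not from B alone. The Fos start-site window, which holds a CArG box, had 6 and 15 reads over 3 in MEL cells and 7 and 9 over 4 in ES-EP. Its adjusted Poisson p of 0.0454 in MEL cells came close, but it failed the second rate, taken from exchanging ChIP and input, and was not called.

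The Jun and Fos sites are printed as the single called site of each gene (assembly mm9, chr4:94717182-94717332 on the minus strand and chr12:86809700-86809850 on the plus strand, each the strand of its gene). Capitals mark GGAA on either strand.

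Jun at 1656: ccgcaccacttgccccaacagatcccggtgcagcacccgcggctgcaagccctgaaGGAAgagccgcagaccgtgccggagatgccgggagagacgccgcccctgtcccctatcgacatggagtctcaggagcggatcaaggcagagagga

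Fos at -5065: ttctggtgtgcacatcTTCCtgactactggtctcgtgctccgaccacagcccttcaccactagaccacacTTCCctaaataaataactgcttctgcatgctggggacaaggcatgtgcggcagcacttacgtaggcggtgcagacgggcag

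The stretch of Jun holds 1 GGAA core and that of Fos 2, and neither window holds the full PU.1 word.

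Nab1, a corepressor that binds EGR proteins, had a site called in both cell types in its first intron at position 585 on chromosome 1. It held 15 and 20 reads over 3 in MEL cells (ratio 3.94) and 26 and 14 over 4 in ES-EP (ratio 5.60, 2.02 to 21.5), and the preparations overlapped between the cell types. The sequence around its summit is given on the strand of Nab1 (assembly mm9, chr1:52556863-52557013, minus strand) because it is the shared site of this gene. Capitals mark GGAA on either strand.

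Nab1 at 585: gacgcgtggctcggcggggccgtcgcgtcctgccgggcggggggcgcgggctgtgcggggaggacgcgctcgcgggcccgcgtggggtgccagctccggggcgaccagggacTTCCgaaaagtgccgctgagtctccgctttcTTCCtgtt

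This stretch is 75.5% G and C and holds 2 GGAA cores.

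Another 2 Nab1 sites, at positions -78 and -1057, were called in MEL cells only. At position -78 the MEL preparations held 10 and 17 reads over no input read, a ratio of 3.04 or more, while ES-EP held 7 and 12 over 14 input reads, a ratio of 0.760 (0.361 to 1.64). The ChIP RPM were 1.75 and 2.43 in MEL cells against 1.11 and 1.69 in ES-EP, while the input was at 0 in MEL cells and at 1.87 in ES-EP. A site at position -14648 was called in ES-EP only, on 11 and 7 reads over 2, although MEL cells held 11 and 10 reads over 2.

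Nab2, the second EGR corepressor, had MEL calls only. Its start site window, shared with the divergent neighbour Tmem194, held 8 and 16 reads over 2 in MEL cells (ratio 4.05, 1.01 to 35.3) and 10 and 14 over 10 in ES-EP (ratio 1.34, 0.619 to 3.15). The ChIP RPM were nearly the same, 1.40 and 2.29 against 1.59 and 1.97. Its other site, at position -10470 in the coding sequence of Tmem194, held 7 and 15 reads over 3 in MEL cells and 29 and 20 over 16 in ES-EP, so that the cell type with the call had the fewer ChIP reads.

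Egr2, a zinc-finger activator of the macrophage program, had 4 called windows in MEL cells and none in ES-EP. The sites at positions -1742 and -245 both lay in introns of Egr2 transcripts that start farther upstream. The first of them lay 544 bases downstream of another annotated Egr2 start site. In MEL cells these sites held 10 and 18 reads over 3 and 6 and 10 reads over 0. In ES-EP they held 9 and 12 over 17 and 7 and 4 over 6. The ratio at position -1742 was 3.15 in MEL cells (0.972 to 16.2) and 0.691 in ES-EP (0.347 to 1.40). A further site at position 10977, at the start site of the neighbouring gene Ado, held 16 and 25 reads over 3 in MEL cells (ratio 4.61, 1.47 to 23.3) and 48 and 20 over 25 in ES-EP (ratio 1.52). The window of the main Egr2 start site had 0 and 2 reads in MEL cells against 6 and 3 in ES-EP and was not called.

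Egr1, the serum-responsive EGR gene, had 3 windows called in MEL cells against 2 in ES-EP. Its shared site lay in intergenic sequence at position -4777, with 8 and 33 reads over 4 in MEL cells (ratio 3.46, 1.25 to 13.3) and 14 and 12 over 4 in ES-EP (ratio 3.64, 1.26 to 14.3). The window held 1 GAGGAAGT, centred 21.5 bases from the summit. At the start site, 2 adjoining windows were called in MEL cells only.

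The first of these, which also holds the qPCR amplicon of the study, had 10 and 20 reads over 4 in MEL cells (ratio 2.53, 0.891 to 9.88; adjusted Poisson p of 0.0223) and 25 and 14 over 13 in ES-EP (1.68, 0.877 to 3.43). This window holds 3 CArG boxes. The second had 16 and 25 over 7 in MEL cells (1.98, 0.878 to 5.22) and 22 and 25 over 16 in ES-EP (1.64, 0.915 to 3.11; adjusted Poisson p of 0.184). In ChIP RPM the cell types overlapped in both windows. A site at position -10899, nearest to the start site of Reep2, was called in ES-EP only, on 3 and 13 reads over 2 against 2 and 8 over 2 in MEL cells.

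Gfi1, the granulocytic repressor, had its calls spread over both sides of the gene on chromosome 5, and none was shared. At position 579, in an annotated exon, MEL cells held 7 and 9 reads over 1 (ratio 5.40, 0.838 to 226) and the window was called, while ES-EP held 9 and 11 over 2 (ratio 5.60, 1.36 to 49.4) and it was not. The ES-EP window was held back by the wider local input, with an adjusted Poisson p of 0.428. Downstream of the gene, at position 12525, ES-EP held 8 and 10 reads over 2 and MEL cells 1 and 1 over 3.

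Another 2 Gfi1 sites, at positions 16046 and -2425, were also called in ES-EP only. They held 13 and 9 reads over 2 and 7 and 11 over 2 in ES-EP, and 7 and 6 over 2 and 5 and 6 over 0 in MEL cells. The site at position 16046 is printed because it is the Gfi1 site with a full PU.1 word, centred 59.5 bases from the summit (strand of Gfi1, assembly mm9, chr5:108137242-108137392, minus strand, capitals marking GAGGAAGT on either strand).

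Gfi1 at 16046: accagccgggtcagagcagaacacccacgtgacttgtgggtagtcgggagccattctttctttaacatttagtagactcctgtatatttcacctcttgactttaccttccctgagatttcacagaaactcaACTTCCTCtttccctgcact

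The Gfi1 start-site window had 2 and 10 reads over 1 in MEL cells and 10 and 4 over 16 in ES-EP and was called in neither. The highest window within 2 kb of an annotated Gfi1 start, at position 2613, held 6 and 5 reads over 8 in MEL cells and 24 and 8 over 11 in ES-EP. It was called in neither, though ES-EP A alone gave a call.

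Id2, the E protein inhibitor, had a single site, called in ES-EP at position -2708 on chromosome 12, with 6 and 12 reads over 3 (ratio 3.36, 0.980 to 17.8). MEL cells held 3 and 21 reads over 4 there, and the window was called from MEL B alone but not from both preparations together. The start-site window of Id2 had 6 and 7 reads over 5 in MEL cells and 1 and 3 over 1 in ES-EP and was called in neither. The highest window within 2 kb of its start, at position -293, held 5 and 22 reads over 8 in MEL cells and 4 and 4 over 2 in ES-EP, without a call.

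The direct comparison of MEL cells with ES-EP used limma's voom model on the reads of the 4 preparations, fitted on 29564 windows of the genome called in either cell type, 35 of which belong to the 10 genes. Of all windows, 1.26% passed with more reads in MEL cells and 0.626% with more in ES-EP at an adjusted p of 0.05. None of the 35 windows passed in limma, and 4 had an unadjusted p under 0.05, as had 17% of all windows tested. All 4 had more reads in ES-EP. With limma on log2 of depth-scaled reads plus 0.5 in place of voom, 1 of the 35 passed, Jun position 1656 (adjusted p 0.0408), and of all windows 4.98% passed. On log2 of ChIP over scaled input 5 of the 35 passed, beside 21.6% of all windows. In the voom fit the median log2 difference (MEL cells over ES-EP) of the 35 windows was -0.23, beside -0.20 over all windows tested. In the fit on ChIP over scaled input these medians were -0.09 and 0.49. Between 2 and 2 preparations an exact two-sided permutation test cannot go below p = 0.333, so single windows were tested only in limma, which shares the spread across windows.

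At 8 of the 30 sites both ES-EP preparations had higher RPM than both MEL preparations, at 4 sites the reverse, and at 18 the preparations overlapped. Complete separation of 2 against 2 preparations has a two-sided exact permutation p of 0.333. The share of separated windows over all called windows of the genome was not counted, so these counts only describe the sites. The lowest adjusted p in limma was 0.0774, at Jun position 1656, where the log2 difference was -2.21 (SE 0.73, n = 2 and 2 preparations, 95% interval -3.64 to -0.79). That is the window whose input was also higher in ES-EP. At the Junb start site the difference was -1.64 (SE 0.77, adjusted p in limma 0.249), and in the Junb coding exon -1.33 (SE 0.77, adjusted p 0.354).

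Chromosome 8, which carries Junb, held fewer input reads in MEL cells than in ES-EP after depth scaling. The ratio over the chromosome was 0.732 when set relative to the median autosome. Over the Junb region it was 0.681, scaled by depth only. With the input of each chromosome as an offset the limma log2 differences at Junb became -1.19 (adjusted p 0.437) at the start site and -0.88 (adjusted p 0.563) in the coding exon. With median-ratio scaling, which also moves the median of all windows to -0.01, they were -1.43 (adjusted p 0.00804) and -1.13 (adjusted p 0.0433), and Jun at position 1656 was -2.05 (adjusted p 0.0105). With that scaling 3 of the 35 windows passed, beside 10.4% of all windows tested, so a pass is less rare there than in the fit by total reads. With each library as a sample and depth scaled by total reads, the adjusted p in limma was 0.0209 at the Junb start site, 0.0767 in the coding exon, 0.0214 at Jun position 1656 and 0.0243 at Gfi1 position 12525. In that fit 3 of the 35 windows and 10.1% of all windows passed. It counts the 2 libraries of a preparation as separate samples although they were taken to share their chromatin, so its p-values are then too small.

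The widest difference was at Gfi1 position 12525, with a log2 difference of -2.58 (SE 1.11, adjusted p in limma 0.199, 95% interval -4.77 to -0.40) on 2 MEL against 18 ES-EP reads. In scaled reads ES-EP were 8.53 times higher there, the only site beyond the 5-fold rule of the study, and Jun position 1656 followed at 4.91. Toward MEL cells the largest differences were Nab1 position -1057 (1.47, SE 0.85, adjusted p 0.36) and Fos position -5065 (1.28, SE 0.72, adjusted p 0.341). Nab2 position -10470 stood at -1.11 (SE 0.67, adjusted p 0.377), and the other 23 sites lay between -0.86 and 0.62 with adjusted p of 0.503 or more.

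**Figure D4:**
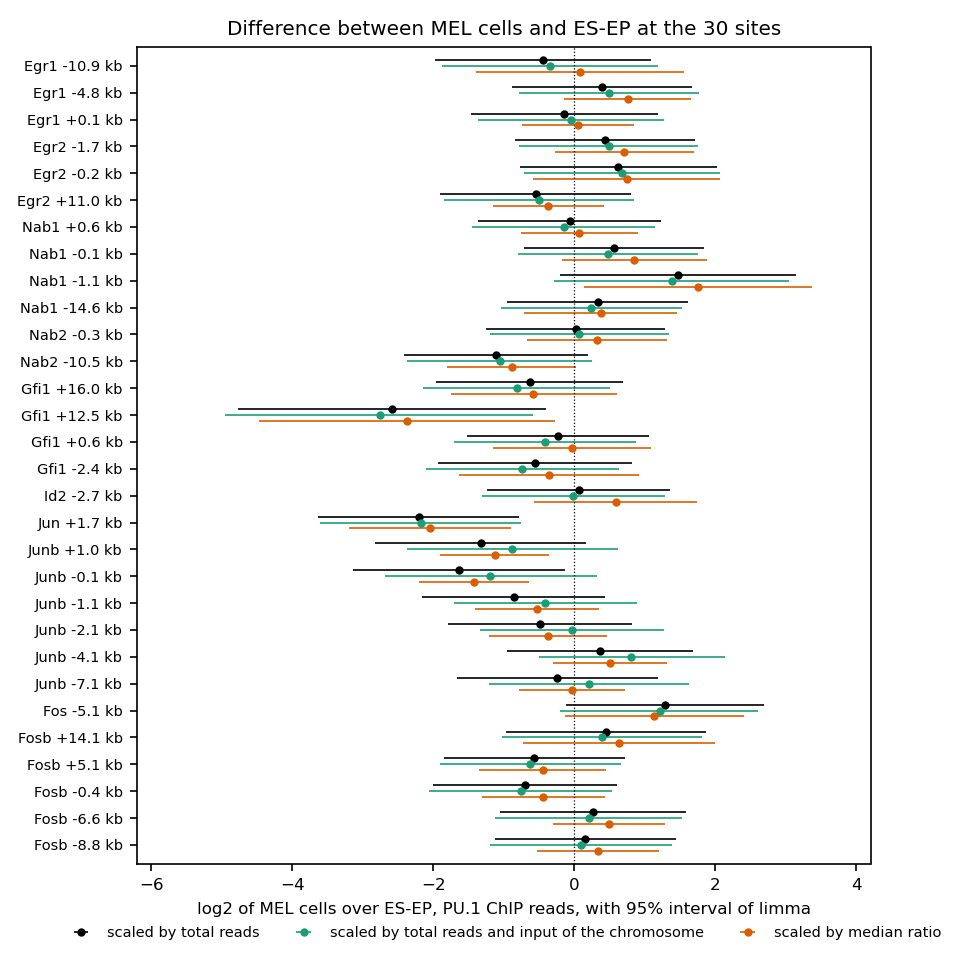
log2 of PU.1 ChIP reads of MEL cells over ES-EP at each of the 30 sites (points) with limma's 95% intervals (lines), scaled by total reads (black), with the input of each chromosome (green) or by median ratio (orange). By total reads only Gfi1 at +12.5 kb, Jun at +1.7 kb and the Junb start site have intervals that leave out 0, and the Junb start site crosses 0 with the chromosome input.

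Calls and ChIP reads did not always go together. Of the 10 sites called in MEL cells only, 6 had higher mean ChIP RPM in MEL cells and 8 had higher input RPM in ES-EP. Of the 9 sites called in ES-EP only, 2 had more ChIP reads in MEL cells and 3 had more input reads in ES-EP. Only start sites of protein-coding genes and of Gfi1 were searched. Within 1 kb of one of these lay 8 of the 10 MEL sites, 1 of the 9 ES-EP sites and 3 of the 11 shared sites. The same shares were not counted for the called windows of the whole genome. Of all protein-coding genes, 38.9% had a called window within 2 kb of a start site in MEL cells and 22.2% in ES-EP. With the first ES-EP input library alone as background 27 of the 788 windows were called in ES-EP (0.424% of all windows), and with the second alone 25 (0.309%), beside 22 with both.

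The PU.1 word GAGGAAGT, searched on both strands, was present in 5 of the 35 called windows (14.3%) and in 19 of the 753 uncalled windows of the same genes (2.52%). Of all 500 bp windows of chromosome 19, 3.01% held it, and of windows called anywhere in the genome 20.3% in MEL cells and 27.8% in ES-EP did. It was in 3 of the 26 windows called in MEL cells (11.5%) and in 5 of the 22 called in ES-EP (22.7%). The shorter core GGAA was in all 35 called windows, but 99.2% of windows of chromosome 19 also hold it. Its nearest copy lay within 50 bases of the summit at 24 of 30 sites. That distance was not measured at other positions, so this count has no background.

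Words of the factors that the 10 genes encode, and of SRF, were counted in the same windows. Shares of all windows of chromosome 19 and of windows with a start site of a protein-coding gene follow in this order. The AP-1 word TGANTCA was in 5 of the 35 called windows (14.3%, against 14.2% and 10.2%). The EGR word GCGNGGGCG was in 5 (14.3%, against 0.275% and 9.01%), and CArG boxes were in 3 (8.57%, against 2.87% and 2.10%). Of windows called anywhere in the genome, 11.35% in MEL cells and 5.70% in ES-EP held the EGR word. For the CArG box these shares were 1.94% and 2.24%. In the uncalled windows of the 10 genes the EGR word was in 1.86% and the CArG box in 2.92%. The GFI1 word AATCNNNGC was in 6 (17.1%, against 18.1% and 16.1%) and the GATA word AGATAA in 5 (14.3%, against 28.9% and 16.2%). GGAA is contained in GAGGAAGT, and a match describes the letters of a window only.

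Related genes give the setting of the 10, counted as having a called window within 2 kb of a start site. Over all protein-coding genes the share was 38.9% (MEL cells), 22.2% (ES-EP) and 18.4% (both), and these shares stand beside each count that follows. Of 17 other AP-1 family genes, 12 had one in MEL cells, and 8 of these also had one in ES-EP. Fosl2 led them with 29 and 83 reads over 3 in MEL cells and 120 and 46 over 24 in ES-EP, followed by Mafk with 22 and 35 over 3 and 50 and 28 over 10. Of 10 other immediate early genes, 8 were called in MEL cells against 6 in ES-EP, and Ier2, which lies on the same chromosome as Junb, held 37 and 149 reads over 3 in MEL cells and 156 and 128 over 19 in ES-EP. Ier5 followed with 16 and 34 over 4 and 44 and 27 over 19.

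The other genes listed beside Egr1 and Egr2 (Egr3, Egr4 and Wt1) had calls in MEL cells only. Wt1 held 7 and 13 reads over 2 in MEL cells and 10 and 11 over 12 in ES-EP, a log2 difference of -0.04, and Egr4 held 5 and 15 reads over 0 in MEL cells and 9 and 12 over 7 in ES-EP, a log2 difference of -0.14. Egr3 held 7 and 24 reads over 1 in MEL cells and 7 and 3 over 1 in ES-EP, a log2 difference of 1.53. No difference passed in limma, and the input RPM was higher in ES-EP at Wt1 and Egr4. Of 6 genes of the GFI family and its corepressor complex, 4 were called in MEL cells against 2 in ES-EP, and Gfi1b, the erythroid relative of Gfi1, was called in both on 21 and 38 reads over 1 and 42 and 21 over 2. Of 6 genes of the ID family and E proteins, 5 were called in MEL cells against 2 in ES-EP, both of these in both cell types, with Tcf12 (22 and 45 over 5, 89 and 38 over 21) ahead of Id3 (14 and 53 over 4, 18 and 11 over 5). Of 6 genes made up of SRF and its cofactors, 4 were called in MEL cells against 2 in ES-EP, and Elk4 was called in both on 14 and 45 reads over 1 and 83 and 42 over 11.

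Of 8 myeloid genes of the macrophage and granulocyte choice, 2 were called in MEL cells against 1 in ES-EP. Itgam, an integrin of myeloid cells, was called in both cell types, with 14 and 28 reads over 3 in MEL cells and 19 and 5 over 5 in ES-EP. Cebpa was called in MEL cells only, and the other 6 were called in neither. The median of the highest window near a start site was 0.988 RPM for these genes, 2.22 for the 10 genes described here and 1.16 for all protein-coding genes. No window within 2 kb of a start site of the related genes passed between the cell types in limma's voom fit of the 4 preparations. Depth was scaled by total reads in that fit. With each library as a sample, the highest window of Bach1 passed in limma (adjusted p 0.0496), in a fit in which 10.1% of all windows passed. With median-ratio scaling the highest windows of Jdp2 (adjusted p 0.0139), Bach1 (0.0341), Cebpa (0.0435) and Id3 (0.0468) passed in limma, in a fit in which 10.4% of all windows passed.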

How the data were processed

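PU.1 ChIP and input libraries of MEL cells and ES-EP were sequenced by the authors on an Illumina GAII and aligned with ELAND to mm9, keeping unique alignments with at most 2 mismatches; the version of ELAND is not given in the sources used here. The deposited files list 1 read per line and hold no measured value, so every count was made here. Reads on unplaced and mitochondrial sequence were left out. Reads were moved by 70 bp (MEL cells) or 65 bp (ES-EP) and counted in windows of 500 bp.

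For the calls, at most 1 read per position, strand and library was kept. Each window was set against the highest of 4 depth-scaled backgrounds (its own input, that of 5 and of 21 windows around it, and the genome average) in a one-sided Poisson test that takes the background as known. A call needed a Benjamini-Hochberg rate below 0.05 and the same for the rate seen when input took the place of ChIP. A site is a run of adjoining windows called in either cell type, represented by the window with the most ChIP reads. Printed counts use all reads. A ratio sums both preparations over the depth-scaled input, with a floor of 3 reads where the input was 0.

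Cell types were compared with limma 3.58.1 (voom, two-sided, Benjamini-Hochberg) in R 4.3.3. Count models were not used for this comparison. The letters A and B were not taken as pairs: the A minus B differences of the cell types correlated with r = 0.0037 over 29564 windows. Genes came from GENCODE and sequences from the genome of the same assembly (NCBIM37). The steps were tested on simulated data, and numpy 2.4.6, scipy 1.17.1, pandas 2.3.3 and pysam 0.24.0 were used. All 10 genes were named, with the start-site window, the highest window within 2 kb of a start site and every site. Beyond the 10, neighbouring genes with the nearest start site, and the genes of related lists called in both cell types with the highest reads, were named; Egr3, Egr4, Wt1, Cebpa, Jdp2 and Bach1 were added after their values were seen. The genes and lists were chosen with earlier results of these data known. The alternatives changed the grid, repeated reads, background, scaling, false discovery rate, read shift, libraries, preparations and inputs.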

Additional observations from a re-analysis of the deposited data

Results flagged for a closer look

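At 5 of 78 sets of 4 libraries (39 windows, the sites and start-site windows among them, in each cell type), 1 library stood apart from the other 3 by Dixon's 95% criterion, which chance passes for about 1 in 20 sets. In RPM (reads scaled to a total of 1000000) these were Egr2 position -245 in MEL library A1, with 0.487 against 1.37 to 1.46 in the others, and Nab1 position -14648 in MEL library A1, with 2.92 against 1.37 to 1.46. In ES-EP they were Nab2 position -10470 in library A2, with 5.85 against 2.55 to 3.10, Jun position 1656 in library B1, with 1.33 against 4.54 to 5.10, and Fosb position -6610 in library A1, with 5.10 against 2.54 to 2.89. The 2 libraries of a preparation were taken to come from the same chromatin.

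In limma on log2 of ChIP over scaled input, 5 sites differed between MEL cells and ES-EP, in a fit in which 21.6% of all windows tested passed. Those higher in MEL cells were Nab1 position -78 by 2.70 (adjusted p 0.000145), Egr2 position -245 by 1.78 (adjusted p 0.0121) and Egr2 position -1742 by 1.56 (adjusted p 0.0342). Those higher in ES-EP were Junb position -1134, with a difference of -2.30 (adjusted p 0.00264), and Gfi1 position 12525, with -2.13 (adjusted p 0.0052). This fit treats the input as fixed although it rests on 1 library (MEL cells) or 2 libraries (ES-EP). At the first 3 of these sites the MEL input held 0 to 3 reads and the ES-EP input 6 to 17, at Junb position -1134 the inputs held 6 and 1 reads, and at Gfi1 position 12525 they held 3 and 2.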

How the results depend on the processing

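The windows called in MEL cells (26) became 3 with the input of the window alone as background in an exact binomial test, 15 at a false discovery rate of 0.01, 7 with the first library of each preparation and 14 with the second; leaving out 1 preparation gave 3 (without MEL B) to 19 (without MEL A). Those called in ES-EP (22) became 7, 14, 4 and 14 under the same settings, and 3 (without ES-EP A) to 19 (without ES-EP B). Over the genome the 22736 MEL windows became 2857, 15746, 6686 and 15428 in the same order, and 5248 to 17733 without 1 preparation, and the 15435 ES-EP windows became 4514, 10789, 3612 and 12176, and 3075 to 12710. The windows called in both (13) became 3 with the input of the window alone, 4 with the first library and 8 with the second. They became 2 to 3 when the preparation of the same letter was left out in both cell types at once. Genes with a MEL call (8) became 1 with the input of the window alone and 3 with the first library. Without 1 preparation there were 3 to 7. Genes with an ES-EP call (7) became 2, 2 and 2 to 6 in the same order, and 4 at a false discovery rate of 0.01. Under these settings, shared windows and genes with a call were not counted over the genome. Whether their losses exceed those of all genes was not tested. Junb position 1025 in MEL cells, and Junb positions 1025 and -76 and Fosb position -6610 in ES-EP, were called under every alternative run. Of 858 comparisons of a named window with an alternative, 659 kept the first call or lack of one, 178 lost the call and 20 gained one. The 659 include windows without a call that stayed uncalled. Of the 39 named windows, 22 had a MEL call at first, while an ES-EP call was present at 20. Only such windows could lose a call, so 178 of 858 understates the share of calls lost. On the moved grid ChIP over input at Fosb position 14144 in MEL cells was 0.787.

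Of the 35 windows, limma called 0, and 1 on log2 counts plus 0.5 (4.98% of all windows tested), 3 with median-ratio scaling (10.4%), 3 with each library as a sample (10.1%), 5 on ChIP over scaled input (21.6%), and 0 with the replicate block and without any 1 preparation, where the lone sample is assumed to vary like the other cell type. On ChIP over input the log2 difference at Nab2 position -10470 turned to 0.19. Turns were followed only at the 7 sites with an absolute log2 difference of at least 1. Elsewhere, Egr2 position 10977 had a log2 difference of -0.55 in reads but a higher ratio to input in MEL cells (4.61 against 1.52). Junb position -76 was lower in MEL cells by both measures (5.01 against 10.97 as ratios). The replicate block changed no call of the 35. With 2 preparations a cell type and a median of 3 (MEL cells) or 2.5 (ES-EP) input reads at a called site window, input depth limits the ratios.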
